A study of Mus musculus with 2 samples.

Results

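Retinal endothelial cells that carried transcripts of both Apod and Rarres1, and that were neither cycling nor rich in tip cell or barrier capillary transcripts, were described in single-cell RNA-seq of the mouse retina at postnatal day 6. A cell was taken as endothelial when the summed level of Pecam1, Cdh5, Cldn5, Kdr, Flt1, Egfl7, Esam and Ramp2 reached 2000 CPM (CPM scales a transcript's count by all transcript counts of the cell) and the summed mural genes Rgs5, Kcnj8, Pdgfrb and Higd1b stayed under 1000 CPM. Of these, cells under 200 CPM for Mki67 plus Top2a (cycling), under 300 CPM for Esm1, Angpt2 and Kcne3 (tip) and under 800 CPM for Mfsd2a, Spock2 and Slco1c1 (barrier capillary) were kept when they held at least 2 Apod and at least 1 Rarres1 molecules. Molecules were counted by their unique molecular identifiers (UMIs). The rule found 167 cells among 1536 endothelial cells and 10347 cells kept in all, and 165 of the 167 lay in the Alk1 ECKO library, against 2 in the control library.

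The Alk1 ECKO library came from mice with floxed Alk1 alleles (Alk1f/f) and Cdh5 CreERT2, an inducible recombinase driven by the promoter of the endothelial cadherin gene. The control library came from Alk1f/f mice, so both libraries carry the floxed alleles and the recombinase is present in the Alk1 ECKO library. Cells of both were enriched with beads against CD31, the product of the endothelial gene Pecam1. There was 1 library per genotype, the number of mice behind each is not known from the labels, and genotype and library therefore cannot be told apart; no test between them was possible and the intervals given cover counting error only.

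ALK1, encoded by Acvrl1, is an endothelial receptor for circulating BMP9 and BMP10 that signals through SMAD1, SMAD5 and SMAD8, and its loss in endothelium is known for arteriovenous malformations. In the growing retina, sprouting tip cells lead the vascular front, while capillary cells behind it take on the transporters and junctions of the blood-retina barrier under Wnt and norrin signalling. Apod encodes apolipoprotein D, a secreted carrier of small hydrophobic ligands, and Rarres1 encodes a membrane protein first described as induced by retinoids.

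Over 5308 barcodes the Alk1 ECKO library counted 62728605 UMIs, and over 8739 barcodes the control library counted 54800465. Endothelial cells made up 43.6% of the cells kept in Alk1 ECKO and 4.37% in control. The libraries shared 20 barcodes, and 1 of them was an Apod Rarres1 cell of Alk1 ECKO. Acvrl1 stood at 137 CPM in Apod Rarres1 cells and 130 CPM in the remaining endothelial cells of Alk1 ECKO, and at 110 CPM in the remaining endothelial cells of control. Which exons are deleted is not given in the sources used here, so these 3′ tags check nothing about the deletion.

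Endothelial genes that the rule did not use were present in the Alk1 ECKO cells. The other 14 endothelial identity genes, among them Tie1, Tek, Emcn and Erg, summed to 3797 CPM in Apod Rarres1 cells, with a UMI in 165 of 165 cells, against 3696 CPM in the remaining endothelial cells and 22.5 CPM in photoreceptors of the library, which were taken by low endothelial transcripts. Among the genes that the rule did use, Cdh5 was detected in 165 of 165 Apod Rarres1 cells with a median of 685 CPM per cell, and Pecam1 in 164 of 165 with a median of 493 CPM. The 8 rule genes summed to a mean of 8227 CPM per cell, against 7991 CPM in the remaining endothelial cells, 7082 CPM in tip cells and 11402 CPM in barrier capillary cells of the same library. All of the 22 endothelial identity genes measured (at least 30 UMIs over both classes), rule genes included, lay within 1.5-fold of the remaining endothelial cells, with a median log2 ratio of -0.02. That ratio and all others between endothelial classes describe cells that the rule separated, and they support nothing about the rule.

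Apod Rarres1 cells made up 13.7% of the endothelial cells of Alk1 ECKO (95% Clopper-Pearson interval 11.8% to 15.8%) and 0.604% of those of control (0.0733% to 2.17%). The share in Alk1 ECKO was 6.86% when barcodes under 1% mitochondrial UMIs were kept and 4.68% when cells were thinned to 5000 UMIs before the rule, so it moved by more than its interval. Tip cells made up 21.4% of endothelial cells in Alk1 ECKO and 3.32% in control. Barrier capillary cells made up 10.3% in Alk1 ECKO and 38.7% in control. The shares of cycling cells, 30.2% in Alk1 ECKO and 28.7% in control, and of remaining cells, 24.4% in Alk1 ECKO and 28.7% in control, lay closer together. The 2 Apod Rarres1 cells of control held 33333 and 89282 UMIs, so nothing is said about groups of genes in them.

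A rule in UMIs takes deep cells more readily than shallow ones. The Apod Rarres1 cells of Alk1 ECKO held a median of 39087 UMIs (3927 to 182033) and 6162 genes, while the remaining endothelial cells held 8938 UMIs and 2924.5 genes. Before any correction, 35.9% of the Apod Rarres1 and remaining cells of Alk1 ECKO, summed, met both minimums, 165 of 459, against 2.06% in control, 2 of 97. After each cell was thinned to 5000 UMIs and shallower cells were left out, 10.3% met them in Alk1 ECKO, 37 of 360 (7.34% to 13.9%), and 0 of 90 in control, where the interval reaches 4.02%. Thinning only takes UMIs away, so a cell can lose the minimums by it but not gain them. The fall in share after thinning is therefore no result about the cells. These shares use the transcripts of the rule itself and come from 1 library per genotype, so they are a description of these libraries.

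The minimums were also met outside the class that names these cells. Thinned to 5000 UMIs, 3.37% of tip cells, 6.45% of barrier capillary cells and 4.55% of cycling cells of Alk1 ECKO held at least 2 Apod and 1 Rarres1 UMIs. In control the thinned shares were 0 of 10 tip cells, 0.833% of barrier capillary cells (1 of 120) and 0 of 90 cycling cells.

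**Figure D1:**
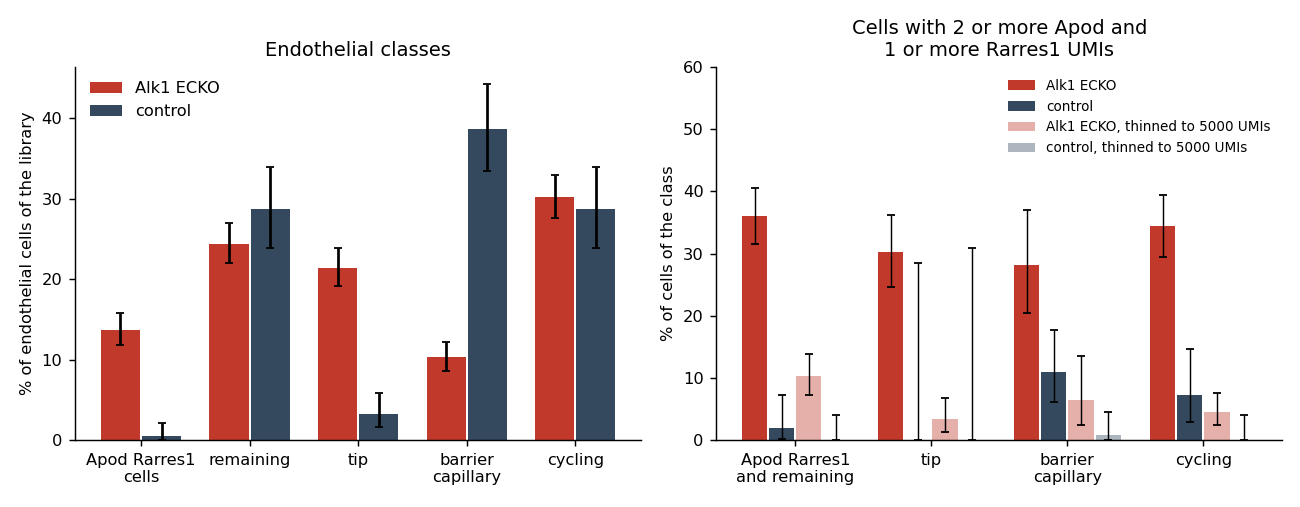
The left panel plots each endothelial class as a percent of the endothelial cells of its library, and the right panel plots the percent of cells of a class with at least 2 Apod and 1 Rarres1 UMIs, with all UMIs (dark) and thinned to 5000 UMIs (pale). Bars are single libraries and error bars are 95% Clopper-Pearson intervals; Apod Rarres1 cells make up 13.7% in Alk1 ECKO and 0.604% in control.

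Apod (chr16:31296192-31314808, minus strand, mm10) averaged 317 CPM over the summed UMIs of Apod Rarres1 cells, against 140 CPM in the remaining cells, 96.8 CPM in tip cells and 285 CPM in barrier capillary cells of Alk1 ECKO. Rarres1 (chr3:67478972-67515523, minus strand) averaged 94.9 CPM, against 36.9 CPM in remaining, 70.1 CPM in tip and 46.1 CPM in barrier capillary cells. Both genes chose the cells, so these values are a description. Photoreceptors of the same library, which should lack both, showed 6.3 CPM of Apod and 0 of Rarres1. Thinned to 2000 UMIs, 43.6% of Apod Rarres1 cells but 0.61% of photoreceptors had an Apod UMI, and 21.2% against 0 of 329 photoreceptors had a Rarres1 UMI, which allows a share of up to 0.912%.

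The other markers that named the cells were Trf, which encodes the iron carrier transferrin, Htra3, a secreted serine protease, and Tgfbi, a matrix protein induced by TGF-beta. Trf (chr9:103204001-103230444, minus strand) stood at 317 CPM, against 210 CPM in remaining cells, a log2 ratio of 0.59 (95% conditional binomial interval 0.48 to 0.71). Htra3 (chr5:35652023-35679782, minus strand) stood at 213 CPM, against 113 CPM, a log2 ratio of 0.91 (0.76 to 1.06). Tgfbi (chr13:56609523-56639562, plus strand) stood at 85.02 CPM, against 80.9 CPM, a log2 ratio of 0.07 (-0.12 to 0.26). The interval of Tgfbi holds 0, so by this measure it did not mark Apod Rarres1 cells among the non-cycling, non-tip, non-barrier cells.

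At equal depth the same order held. Thinned to 5000 UMIs, Trf was detected in 77.8% of 162 Apod Rarres1 cells (70.6% to 83.9%), against 57.1% of 198 remaining cells (49.9% to 64.1%). Htra3 was detected in 64.2%, against 38.4%. Tgfbi was detected in 37.0% (29.6% to 44.97%), against 27.8% (21.7% to 34.6%), 2 intervals that overlap. Without thinning, Trf had a UMI in 98.8% of Apod Rarres1 cells and Htra3 in 92.1%. In photoreceptors thinned to 2000 UMIs, 0.91% had a Trf UMI, against 52.7% of Apod Rarres1 cells.

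Barrier capillary cells carried as much of some of these transcripts as Apod Rarres1 cells did. Htra3 stood at 213 CPM in Apod Rarres1 cells and 306 CPM in barrier capillary cells, a log2 ratio of -0.52 (-0.65 to -0.40). Apod differed by a log2 ratio of 0.15 (0.03 to 0.27) and Trf by 0.13 (0.01 to 0.25). Rarres1 and Tgfbi were the higher ones, at log2 ratios of 1.04 (0.77 to 1.33) and 0.99 (0.70 to 1.29). Against tip cells the pattern turned: Apod was higher by 1.71 and Htra3 by 1.06 on the log2 scale, while Rarres1 was higher by 0.44 and Tgfbi by 0.05 (-0.10 to 0.21).

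Levels per cell spread widely over the Apod Rarres1 cells, and this spread includes counting noise and differences in depth. The lower and upper quartiles over cells were 157 and 544 CPM for Apod, 51.6 and 181 CPM for Rarres1 and 190 and 501 CPM for Trf. For Tgfbi the quartiles were 21.1 and 138 CPM, with a UMI in 131 of the 165 cells. The 8 cells with the most Apod UMIs, 5% of the cells, held 18.5% of them, and no single cell held over 3.53%. Thinned to 5000 UMIs, the variance of Apod UMIs over cells was 4.67 times their mean, where counting noise gives 1. Apod and Rarres1 chose the cells, and no such ratio is given here for Rarres1, Trf or Tgfbi. The gap junction gene Gja4 had a UMI in 40 of 162 thinned cells with up to 16 in a cell, and Apoe, a lipid carrier gene, in 47 of 162 with up to 56.

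**Figure D2:**
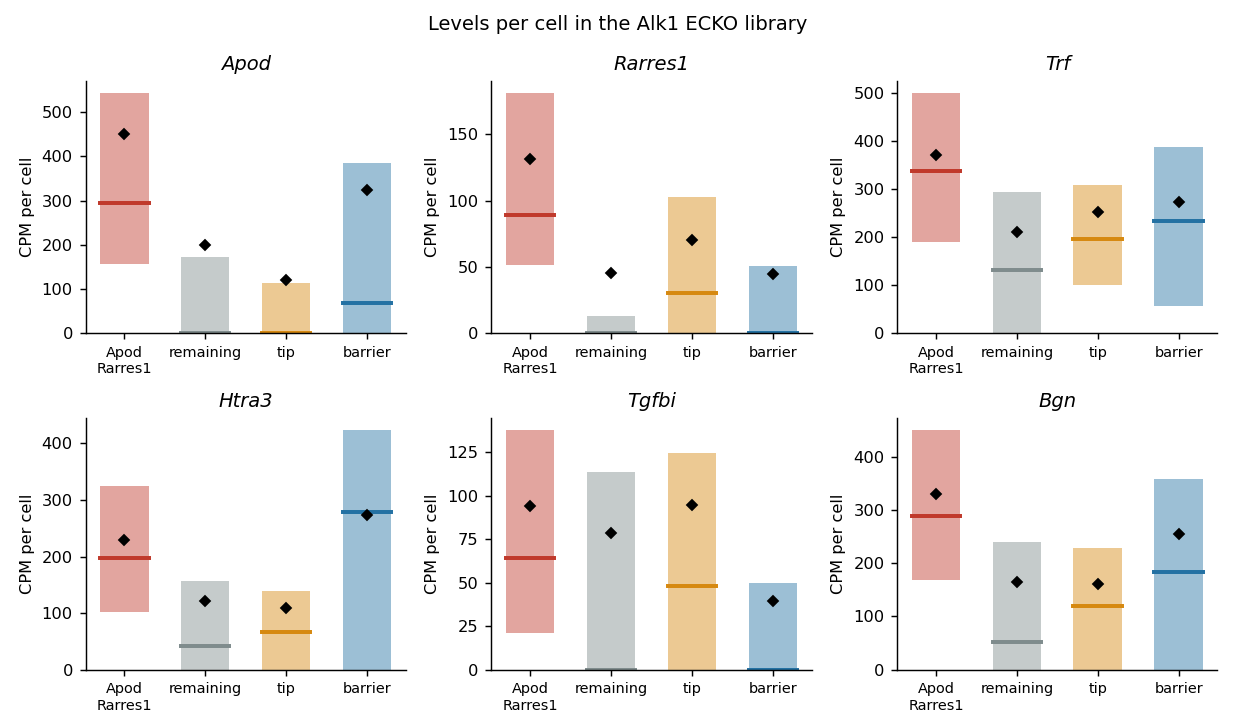
CPM per cell of the 5 markers and of Bgn in 4 endothelial classes of the Alk1 ECKO library; boxes run from the first to the last quartile, thick lines are medians and diamonds are means over cells. Apod has a median of 294 CPM in Apod Rarres1 cells and 0 in remaining and tip cells, and Htra3 has its highest median in barrier capillary cells.

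Promoters are shown for Apod and Rarres1, which define these cells, and for Bgn, which had one of the highest ratios over remaining cells. Each runs from 250 bases before to 50 bases after the RefSeq start on GRCm38.p6, 5′ to 3′ on the gene's strand, and capitals mark motif matches on either strand. The motifs searched were GGCGCC, a palindrome bound by SMAD1 and SMAD5, CAGAC (or GTCTG on the other strand), the SMAD box, AGGTCA (or TGACCT), the core bound by retinoid receptors, and CACCC (or GGGTG), the core bound by KLF factors.
Apod, chr16:31314759-31315058, minus strand: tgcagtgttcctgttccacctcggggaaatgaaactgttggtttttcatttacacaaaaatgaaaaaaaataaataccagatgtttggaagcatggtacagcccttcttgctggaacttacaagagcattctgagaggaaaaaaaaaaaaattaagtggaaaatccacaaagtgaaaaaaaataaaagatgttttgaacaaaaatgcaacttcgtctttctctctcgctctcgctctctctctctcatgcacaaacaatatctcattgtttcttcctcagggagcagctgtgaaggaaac
Rarres1, chr3:67515474-67515773, minus strand: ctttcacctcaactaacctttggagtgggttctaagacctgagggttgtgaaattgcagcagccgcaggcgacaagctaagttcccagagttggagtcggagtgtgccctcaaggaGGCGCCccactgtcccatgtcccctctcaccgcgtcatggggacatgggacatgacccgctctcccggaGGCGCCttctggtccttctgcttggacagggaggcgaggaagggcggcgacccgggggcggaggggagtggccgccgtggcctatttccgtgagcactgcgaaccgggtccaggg
Bgn, chrX:73483351-73483650, plus strand: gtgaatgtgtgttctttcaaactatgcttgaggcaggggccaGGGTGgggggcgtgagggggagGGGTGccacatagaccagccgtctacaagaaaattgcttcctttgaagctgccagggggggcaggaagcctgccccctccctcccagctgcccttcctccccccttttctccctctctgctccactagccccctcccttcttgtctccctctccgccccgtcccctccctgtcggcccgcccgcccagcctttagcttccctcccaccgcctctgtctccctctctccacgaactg
Rarres1 held 2 GGCGCC matches, a motif found in 11.9% of 32851 promoter windows, and Bgn held 2 GGGTG matches, a motif found in 57.5%. The windows of Apod and of Htra3 (not printed) held none of the 4 motifs; CAGAC occurred in 49.6% of windows and AGGTCA in 16.3%. A match is a description of letters and not a binding site.

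Across the endothelial classes, Apod and Rarres1 were higher in Alk1 ECKO than in control also in cells that the minimums did not choose. Both genes were chosen for the rule with these libraries known, so these values are a description. In barrier capillary cells Apod stood at 285 CPM in Alk1 ECKO and 139 CPM in control, a log2 ratio of 1.03 (0.87 to 1.20). In cycling cells it stood at 91.5 CPM in Alk1 ECKO and 17.6 CPM in control, a log2 ratio of 2.38 (2.07 to 2.70). Rarres1 stood at 46.1 CPM in Alk1 ECKO barrier capillary cells and 9.53 CPM in control ones, and at 48.1 CPM in Alk1 ECKO cycling cells and 10.7 CPM in control ones. Tip cells of control numbered 11 and held 5 UMIs of each gene.

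Summing Apod Rarres1 and remaining cells removes the choice of cells by the minimums. It does not remove the choice of Apod and Rarres1 as rule genes, which was made with both libraries known. In the sum, Apod stood at 254 CPM in Alk1 ECKO and 33.3 CPM in control, a log2 ratio of 2.93 (2.55 to 3.34). Rarres1 stood at 74.3 CPM in Alk1 ECKO and 8.17 CPM in control, a log2 ratio of 3.19 (2.43 to 4.06), from 886 and 14 UMIs. Trf and Bgn differed less, by 1.23 (1.03 to 1.44) and 1.07 (0.87 to 1.27). Htra3 differed by 0.94 (0.70 to 1.18) in these cells but by -0.04 (-0.12 to 0.04) over all endothelial cells, of which barrier capillary cells made up 10.3% in Alk1 ECKO and 38.7% in control. Tgfbi differed by 0.38 (0.09 to 0.68). The remaining cells of control held 188 UMIs of Trf and 136 of Htra3.

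In the 2 Apod Rarres1 cells of control, Apod stood at 106 CPM (13 UMIs), Rarres1 at 32.6 CPM (4 UMIs), Trf at 130 CPM (16 UMIs), Htra3 at 188 CPM (23 UMIs) and Tgfbi at 40.8 CPM (5 UMIs). The log2 ratio of the Alk1 ECKO cells over these 2 cells was 1.58 (0.80 to 2.49) for Apod and 0.18 (-0.41 to 0.84) for Htra3. The 2 control cells held 122615 UMIs in all, so a gene at 20 CPM rests on few UMIs there. Of 6623 genes with at least 50 UMIs over both classes, 16.5% were higher and 34% lower by at least 1.5-fold in Alk1 ECKO. The counting noise of 2 cells is part of these shares, so they describe no difference between genotypes.

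**Figure D3:**
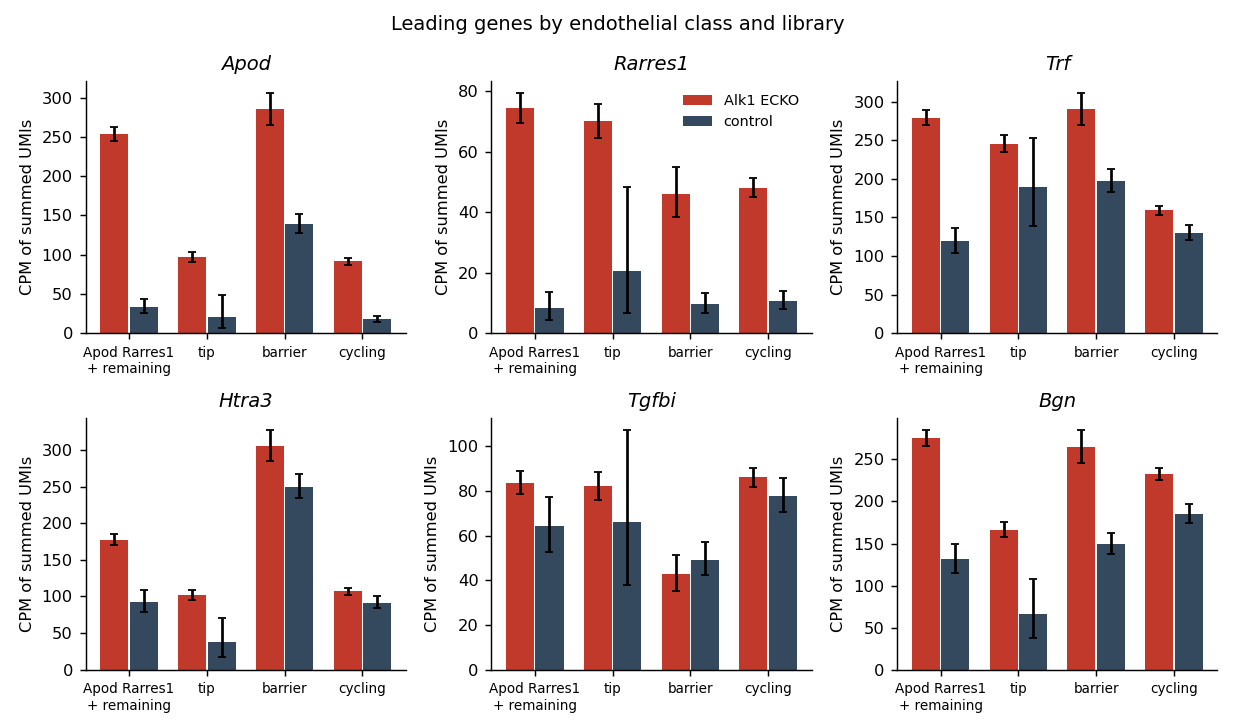
CPM of summed UMIs in 4 endothelial classes of the Alk1 ECKO (red) and control (dark) library, 1 library each, with 95% Poisson intervals; Apod Rarres1 and remaining cells are summed. Apod and Rarres1 stand higher in Alk1 ECKO in each of the 4 classes, while the intervals of Tgfbi overlap in barrier capillary cells, at 42.8 CPM in Alk1 ECKO and 49.3 CPM in control.

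Transcripts of other markers varied on both sides of the minimums. Cells just inside, with 2 or 3 Apod UMIs and at least 1 Rarres1 UMI, numbered 23 and held Trf at 169 CPM, Htra3 at 104 CPM and Bgn at 260 CPM. The 142 cells with at least 4 Apod UMIs held Trf at 333 CPM, Htra3 at 225 CPM and Bgn at 342 CPM. Just outside, 33 cells with 1 Apod UMI and a Rarres1 UMI held Trf at 238 CPM, above the 23 cells just inside, and Htra3 at 82.3 CPM. The 41 cells with a Rarres1 UMI and no Apod UMI held Trf at 167 CPM and Htra3 at 66.4 CPM, and the 30 cells with 1 Apod UMI and no Rarres1 UMI held them at 175 and 110.5 CPM. Another 74 cells had at least 2 Apod UMIs and no Rarres1 UMI, with Trf at 267 CPM, Htra3 at 178 CPM, Tgfbi at 120 CPM and Slc38a5 at 173 CPM. Their Trf and Htra3 levels lay between those of the 23 and the 142 cells inside the minimums. The 116 cells with neither transcript were shallow, at a median of 3942.5 UMIs, and held Mgp at 640 CPM, against 33.2 CPM in the 142 cells.

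**Figure D4:**
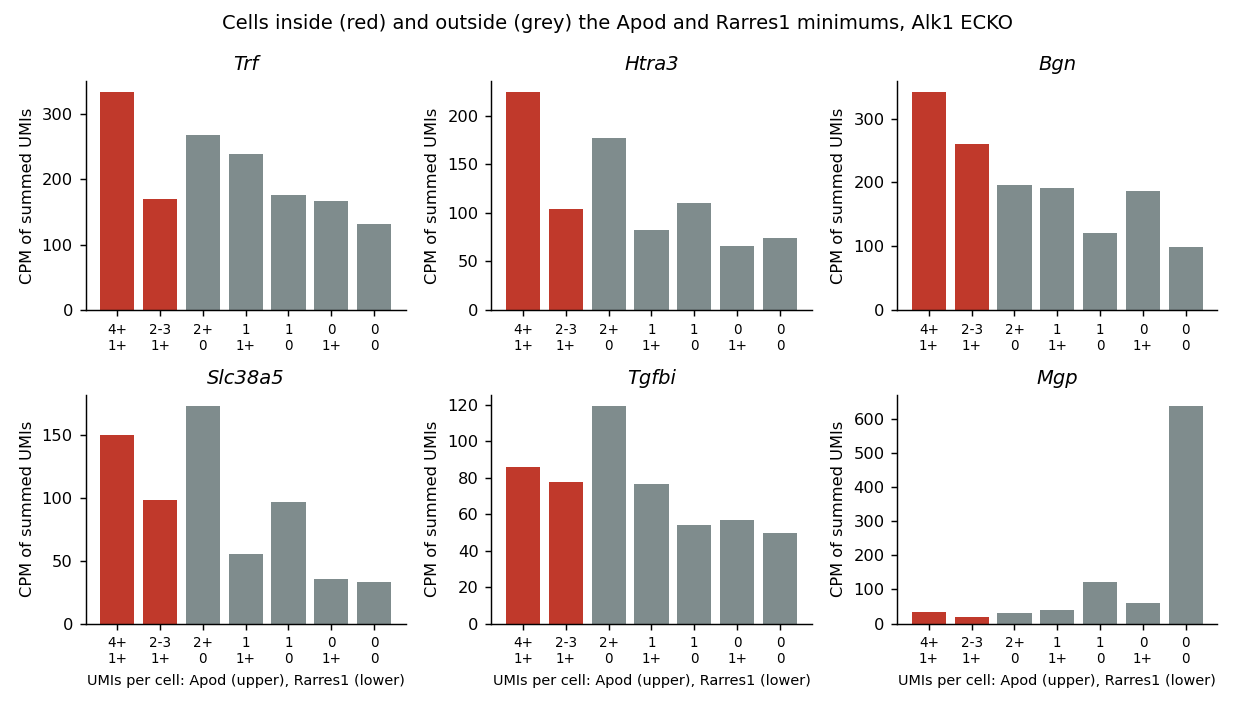
CPM of summed UMIs of 6 genes in Alk1 ECKO cells grouped by their Apod and Rarres1 UMIs, with cells inside the minimums in red and outside in grey; no intervals are drawn because these groups were chosen by the rule. Trf stands at 333 CPM in the 142 cells with at least 4 Apod UMIs and at 131 CPM in the 116 cells with neither transcript, and Mgp is highest in those 116 cells.

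Against the remaining endothelial cells of Alk1 ECKO, the number of genes that differed depended on the setting. Of 5879 genes with at least 50 UMIs over both classes and 20 CPM in 1 of them, 58 were higher by at least 1.5-fold (0.987%) and 101 were lower (1.72%). Since the rule split this same population, the counts describe its result. They were 386 and 545 when cells were thinned to 5000 UMIs before the rule, 201 and 258 over the same cells thinned to 5000 UMIs, and 186 and 384 by the mean of per-cell CPM. The median log2 ratio of all 10549 measured genes was -0.01.

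Ion channel and transporter genes were prominent among the 15 highest ratios outside the rule genes. Kcng2, a modifier subunit of potassium channels, stood at 36.4 CPM, against 18.5 CPM, and Cacna1e, a voltage-gated calcium channel, at 33.8 CPM, against 18.9 CPM. The glutamine transporter gene Slc38a3 stood at 130 CPM, against 74.3 CPM, and its relative Slc38a5, a transporter known for its expression in retinal veins and capillaries, at 145 CPM, against 91.8 CPM. These 2 had log2 ratios of 0.80 (0.62 to 0.99) and 0.66 (0.49 to 0.83).

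Matrix and cytoskeletal genes were among the others. Bgn (chrX:73483602-73495933, plus strand), which encodes the small proteoglycan biglycan, stood at 334 CPM, against 169 CPM, a log2 ratio of 0.98 (0.86 to 1.10). It was detected in 75.3% of Apod Rarres1 cells and 42.9% of remaining cells when thinned to 5000 UMIs. Myl9, a regulatory light chain of myosin, stood at 64.9 CPM, against 33.6 CPM, and the cadherin gene Cdh11 at 34.8 CPM, against 19.9 CPM. Crybb3, a beta crystallin, stood at 34.2 CPM, against 18.0 CPM. Pcbd1, Ccdc141, Sirpa, Arid3a and Ctdspl, also of that rank, had log2 ratios of 0.93, 0.84, 0.84, 0.84 and 0.80.

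Myl9 is also a mural gene, and summed mural transcripts were higher in Apod Rarres1 cells than in remaining cells. The 15 mural markers summed to 144 CPM in Apod Rarres1 cells, with 14 of 15 above 0 and Rgs5 highest at 53.7 CPM, against 78.5 CPM in remaining, 108 CPM in tip and 17.1 CPM in barrier capillary cells. Per cell the median was 0 in both classes, with a mural UMI in 68 of 165 cells and 77 of the 294 shallower remaining cells. The mean of per-cell CPM went the other way, at 85.9 CPM, against 125.7 CPM in remaining cells. The 5 highest cells held 54.4% of the mural UMIs of Apod Rarres1 cells and 50.9% of those of remaining cells. With the cells rich in another type's transcripts left out, 15 of the 165 and 44 of the 294, a step chosen after seeing the data, the log2 ratio of Myl9 was 1.09.

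Arterial transcripts were lower in Apod Rarres1 cells than in remaining cells. Of 22 arterial genes measured, 14 were lower by at least 1.5-fold and 0 were higher, with a median of -0.82, where 4.68% of all 10549 measured genes were lower and 3.51% higher. Mgp, which encodes matrix Gla protein, an inhibitor of BMP ligands, stood at 31.7 CPM, against 159 CPM, a log2 ratio of -2.33 (-2.54 to -2.11). The elastic matrix genes Eln and Fbln2 stood at 7.02 and 5.98 CPM, against 47.3 and 42.1 CPM. Bmx, an arterial tyrosine kinase gene, stood at 5.72 CPM, against 30.3 CPM, and Stmn2 at 22.4 CPM, against 109 CPM. The gap junction gene Gja4, also expressed in capillaries, was lower by less, at 206 CPM against 359 CPM. Dll4 and Sox17 had log2 ratios of 0.25 and -0.07.

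Targets of ALK1 and SMAD signalling were lower as well. Of 14 measured, 7 were lower and 0 higher, with a median of -0.63, where 4.68% of all measured genes were lower. Tmem100, a membrane protein gene induced by BMP9, stood at 6.24 CPM, against 28.9 CPM, a log2 ratio of -2.21 (-2.72 to -1.72), and Smad6, an inhibitory SMAD, at 10.7 CPM, against 31.2 CPM. Id1 and Id3, the classical transcriptional targets, were lower by less than 1.5-fold, at log2 ratios of -0.47 each. This list shares 5 measured genes with the arterial list (Gja4, Gja5, Hey1, Sema3g and Unc5b), of which 3 were lower, and 4 of the other 9 were lower. The 14 receptor and transducer genes of the pathway all lay within 1.5-fold, with Eng at -0.03 and Bmpr2 at -0.22.

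Arterial-rich cells were more frequent in the remaining class. Summed over Bmx, Gja5, Gkn3, Sema3g, Stmn2, Mgp, Eln and Fbln2, 72 of 294 remaining cells reached 500 CPM, against 10 of 165 Apod Rarres1 cells. A limit in CPM is reached by few UMIs in a shallow cell. The lower quartile of depth was 3265.75 UMIs in remaining cells and 19094 in Apod Rarres1 cells, and the part of depth in these numbers was not tested. Per cell, the arterial list had a median of 1470 CPM in Apod Rarres1 cells and 1851 CPM in remaining cells, whose highest cell held 28349 CPM. When such cells were left out of both classes, an alternative chosen after seeing the data that removes arterial transcripts by construction, 2 of 20 arterial genes were lower and 0 higher, with a median of -0.03. Of 13 SMAD targets 1 was then lower, with a median of -0.24. Of all 10375 genes measured in this setting, 355 were lower and 431 higher. Mgp then had a log2 ratio of 0.49 and the chemokine gene Cxcl12 one of 0.16, against -0.80 with all cells.

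Other genes with the lowest ratios belonged to no single list. The water channel gene Aqp1 stood at 3.12 CPM, against 38.8 CPM, the Wnt antagonist gene Dkk2 at 3.25 CPM, against 26.0 CPM, and Lpl, the lipoprotein lipase gene, at 4.94 CPM, against 35.96 CPM. Serpinf1, which encodes the anti-angiogenic factor PEDF, stood at 5.07 CPM, against 31.9 CPM. The eye transcription factor gene Six3 and the imprinted RNA H19 had log2 ratios of -3.27 and -2.38. Hmox1, the haem-degrading enzyme gene, stood at 42.6 CPM, against 266 CPM, but 1 remaining cell held 58.8% of the UMIs of that class. Htra1, a relative of Htra3, went the other way from it, at 27.4 CPM, against 83.5 CPM, a log2 ratio of -1.61 (-1.86 to -1.36).

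Venous and Wnt genes barely separated Apod Rarres1 cells from the remaining cells, and barrier genes were slightly higher. Over all measured genes, 3.51% were higher and 4.68% lower, at a median of -0.01. Of 17 venous genes 2 were higher and 2 lower, with a median of -0.02; Nr2f2, the venous transcription factor gene, had a log2 ratio of -0.12 (-0.39 to 0.15) and Ephb4 one of 0.08 (-0.21 to 0.37). Aplnr, the apelin receptor gene of veins and capillaries, stood at 154 CPM, against 135 CPM. Of 28 barrier and capillary transport genes 3 were higher (Slc16a1, Slc38a3 and Slc38a5) and 1 lower (Slco1a4), with a median of 0.23. All of the 22 Wnt and norrin response genes lay within 1.5-fold, among them Lef1 at 0.01 and Axin2 at -0.57. The flow-induced factor genes Klf2 and Klf4 had log2 ratios of 0.19 (0.11 to 0.26) and -0.02 (-0.15 to 0.12), and Dusp1 alone of 24 flow-responsive genes passed 1.5-fold upward, while 3 passed it downward.

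Matrix lists differed in their counts, where 3.51% of all measured genes were higher and 4.68% lower. The 20 basement membrane genes had a median of 0.19 with none beyond 1.5-fold; Lama4, a laminin of endothelial basement membranes, stood at 342 CPM, against 259 CPM, and Col18a1 at 249 CPM, against 370 CPM. Of 18 genes of the TGF-beta response and matrix 0 were higher and 2 lower, the latent TGF-beta binding gene Ltbp4 and the fibrillin gene Fbn1 at log2 ratios of -1.52 and -2.17. Of 20 HTRA and secreted protease genes 1 was higher, Htra3, and 5 were lower, among them Mmp2 at -2.16, Timp2 at -1.33 and Ctsd at -1.16. Among 17 iron genes 2 were higher, Trf and the metal transporter gene Slc11a2, and 2 lower. Among 9 retinoid genes other than Rarres1, which the rule used, 1 was higher (Rxra, at 0.60 with an interval of -0.03 to 1.27) and 1 lower (Lpl). Rasgrp2, an activator of RAP1, stood at 150 CPM, against 100 CPM, and at 27.0 CPM in remaining cells of control.

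Interferon and MHC transcripts split. Of 32 measured, 5 were higher, among them Irf7 at 1.11, Ifit1 at 0.97 and Isg15 at 0.78 on the log2 scale, and 3 were lower, among them Cd74 at -0.67 and H2-Ab1 at -0.77, with a median of 0.04. Among all measured genes, 3.51% were higher and 4.68% lower. Cells rich in MHC class II transcripts (Cd74, H2-Aa and H2-Ab1 summing to at least 300 CPM) numbered 2 of 165 and 31 of 294. That limit too is reached by few UMIs in a shallow cell. The shallowest remaining cell held 1007 UMIs and the shallowest Apod Rarres1 cell 3927, and the part of depth in these numbers was not tested. With the cells rich in MHC class II transcripts left out the median of the list was 0.56. With arterial-rich cells left out, 18 of 32 were higher and 0 lower at a median of 0.68. In that setting 431 of all 10375 measured genes were higher and 355 lower. With the mean of per-cell CPM in place of summed UMIs, the median of the list was -0.43. The direction of this list thus changed with the cells and the mean that were used. The 15 microglia or macrophage markers summed to 139 CPM in Apod Rarres1 cells, 90.8% of it in 1 cell, against 548 CPM in remaining cells. In remaining cells, 1 cell held 41.1% of these UMIs and the 5 highest cells held 87.6%. The part of these markers in the values of the list was not tested.

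Across all 31 lists of endothelial functions, 28 medians against the remaining cells lay within 0.25 of the median of all measured genes. The range ran from -0.82 (arterial) to 0.25 (tip cell).

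**Figure D5:**
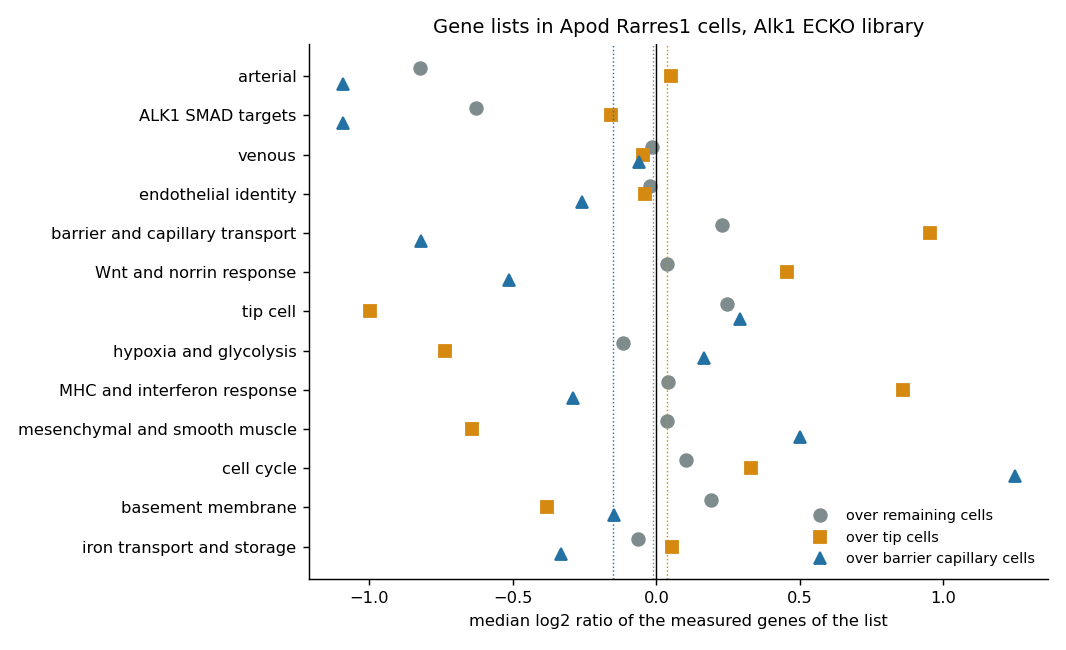
Median log2 ratio of the measured genes of 13 lists in Apod Rarres1 cells over remaining (circles), tip (squares) and barrier capillary cells (triangles) of Alk1 ECKO; dotted lines mark the median of all measured genes in each comparison. Arterial genes lie at -0.82 over remaining cells, -1.09 over barrier capillary cells and 0.05 over tip cells. Tip cell genes lie at -0.997 over tip cells.

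Against tip cells of Alk1 ECKO, Apod Rarres1 cells carried more transport and barrier transcripts and fewer sprouting and hypoxia transcripts. Of 5863 genes, 300 were higher by at least 1.5-fold (5.12%) and 357 lower (6.09%). Tip cells were defined by Esm1, Angpt2 and Kcne3, which are among the 26 tip cell genes measured, of which 18 were lower and 0 higher (median -0.997, where 7.75% of 10927 measured genes were lower). Adm, which encodes the vasoactive peptide adrenomedullin, stood at 81.0 CPM, against 258 CPM, Apln, the apelin gene, at 284 CPM, against 670 CPM, and Igfbp3 at 281 CPM, against 955 CPM.

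Of 28 barrier and capillary transport genes 19 were higher and 0 lower than in tip cells (median 0.95, where 9.99% of measured genes were higher). Car4, a carbonic anhydrase of capillaries, stood at 21.5 CPM, against 3.67 CPM, and Slc38a5 at 145 CPM, against 29.9 CPM, a log2 ratio of 2.27 (2.08 to 2.48). The phospholipid transfer protein gene Pltp stood at 341 CPM, against 67.8 CPM, and the cationic amino acid transporter gene Slc7a1 at 357 CPM, against 135 CPM. The tight junction genes Ocln and Cldn5 had log2 ratios of 1.20 and 0.76. Of 22 Wnt and norrin genes 9 were higher and 1 lower, with Apcdd1, a direct Wnt target, at 154 CPM, against 58.7 CPM.

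Venous and flow genes were mixed against tip cells, where 9.99% of all measured genes were higher and 7.75% lower. Of 18 venous genes 8 were higher and 5 lower (median -0.05), and of 24 flow-responsive genes 6 were higher and 2 lower (median 0.14). Nr2f2 stood at 40.2 CPM, against 17.4 CPM, a log2 ratio of 1.21 (0.92 to 1.496). Klf2 stood at 622 CPM, against 224 CPM, and Klf4 at 157 CPM, against 59.1 CPM. Vwf, the von Willebrand factor gene, went the other way at 80.9 CPM, against 159.9 CPM, as did Edn1, the endothelin 1 gene, at 14.6 CPM, against 31.05 CPM. Of 32 MHC and interferon genes 20 were higher and 0 lower, at a median of 0.86. The highest ratios outside the lists included Flrt2, a guidance ligand gene, at 24.4 CPM, against 1.83 CPM, Mfap2, a microfibril gene, at 62.8 CPM, against 12.7 CPM, and Ass1, of arginine synthesis, at 30.9 CPM, against 6.87 CPM. Nr4a2, Slc1a4, Fcgrt, Fam181b and Tnfaip8 had log2 ratios between 1.78 and 2.201.

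Of 32 hypoxia and glycolysis genes 20 were lower than in tip cells and 2 higher, at a median of -0.74, where 7.75% of all measured genes were lower. Egln3, an oxygen-sensing hydroxylase gene, stood at 5.59 CPM, against 45.03 CPM, and Ankrd37 at 95.6 CPM, against 241 CPM. Of 21 mesenchymal and smooth muscle genes 11 were lower, with S100a6 at 106 CPM, against 430 CPM, and of 21 integrin and adhesion genes 7 were lower, with Itga4 at 112 CPM, against 274 CPM. Coro1a, an actin regulator gene, stood at 11.1 CPM, against 99.4 CPM, and the secreted protease gene Prss23 at 58.1 CPM, against 268 CPM. Aqp1, Nts, Ackr3, Pcsk6, Irf8 and Fhl2 were lower by log2 ratios between -3.43 and -2.31.

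Against barrier capillary cells the differences ran the other way for transport genes. Of 6272 genes, 239 were higher by at least 1.5-fold (3.81%) and 728 lower (11.6%), and the median of all 10327 measured genes was -0.15. Set relative to that median, which draws the counts towards balance by construction, 425 were higher and 389 lower. Barrier cells were defined by Mfsd2a, Spock2 and Slco1c1, which are among the 28 barrier and capillary transport genes, of which 18 were lower and 1 higher (median -0.82, where 14.7% of measured genes were lower). The organic anion transporter gene Slco1a4 stood at 8.32 CPM, against 109 CPM, the monocarboxylate transporter gene Slc16a1 at 10.0 CPM, against 54.7 CPM, and the glucose transporter gene Slc2a1 at 549 CPM, against 1271 CPM. Slc38a3 had a log2 ratio of -0.01 (-0.18 to 0.17), within counting error of 0, and Car4 was higher, at 21.5 CPM, against 9.67 CPM.

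Of 17 iron genes 5 were lower and 3 higher than in barrier capillary cells (median -0.33), where 14.7% of all measured genes were lower and 6.66% higher. The transferrin receptor gene Tfrc stood at 77.7 CPM, against 200.4 CPM, and the iron exporter gene Slc40a1 at 101 CPM, against 293 CPM, while Hmox1 stood at 42.6 CPM, against 18.6 CPM. Thinned to 5000 UMIs, Hmox1 had a UMI in 9 of 162 Apod Rarres1 cells, with up to 9 in a cell. Its log2 ratio was -0.059 with minimums in CPM and -0.17 when cells were thinned before the rule, so its direction was not kept. Of 22 Wnt and norrin genes 9 were lower and 1 higher, at a median of -0.51 where that of all measured genes was -0.15; Axin2 stood at 12.6 CPM, against 40.9 CPM, Nkd1 at 16.6 CPM, against 74.0 CPM, and Apcdd1 at 154 CPM, against 348 CPM.

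Arterial genes and SMAD targets were also lower than in barrier capillary cells, 14 of 21 (median -1.09) and 11 of 13 (median -1.09), where 14.7% of all measured genes were lower. Id1 stood at 220 CPM, against 467 CPM, a log2 ratio of -1.08 (-1.19 to -0.98), Id2 at 25.9 CPM, against 86.3 CPM, and Id3 at 315 CPM, against 574 CPM. Smad6 and Sema3g had log2 ratios of -1.89 and -2.08, and the receptor gene Bmpr2 one of -0.98 (-1.12 to -0.85). Both classes are from the same Alk1 ECKO library. Klf2 and Klf4 stood at 622 and 157 CPM, against 996 and 300.1 CPM in barrier capillary cells. Tip cells of that library did not differ in this way. Against them 7 of 21 arterial genes were higher and 4 lower (median 0.05). Of 13 SMAD targets 0 were higher and 1 lower (median -0.16), with Id1 at a log2 ratio of 0.03. Over all genes measured against tip cells, 9.99% were higher and 7.75% lower.

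Cell cycle transcripts were higher than in barrier capillary cells, 29 of 35 measured at a median of 1.25 with 1 lower. Both classes passed the same limit on Mki67 and Top2a, but that limit is in CPM. It lets a deeper cell hold more UMIs of these genes, and the median depth was 39087 UMIs in Apod Rarres1 cells and 14770 in barrier capillary cells. Thinned to 5000 UMIs, Ccnb2 had a UMI in 13 and Hist1h1b in 11 of 162 Apod Rarres1 cells. Over all measured genes, 6.66% were higher and 14.7% lower. Ccnb2 stood at 35.1 CPM, against 2.60 CPM, Birc5 at 58.5 CPM, against 8.55 CPM, Ube2c at 53.8 CPM, against 6.69 CPM, and the histone gene Hist1h1b at 70.2 CPM, against 8.55 CPM. When cells were thinned to 5000 UMIs before the rule was applied, the median of that list was -0.03 and Birc5 had a log2 ratio of -0.93, so the difference in this list was not kept under that setting.

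Sprouting and contractile genes ranked above barrier capillary cells as well. Of 25 tip cell genes 10 were higher and 1 lower, where 6.66% of all measured genes were higher, with Apln at 284 CPM, against 118 CPM, and Adm at 81.0 CPM, against 39.0 CPM. Of 20 mesenchymal genes 9 were higher and 2 lower, led by Lgals1 at 110 CPM, against 15.2 CPM, S100a6 at 106 CPM, against 17.5 CPM, and Myl9 at 64.9 CPM, against 18.6 CPM. Cav1, the caveolin gene, stood at 188 CPM, against 119 CPM. Of 20 junction genes 8 were lower and 0 higher, where 14.7% of all measured genes were lower, with Ocln at 36.1 CPM, against 92.2 CPM. Aqp1 at 3.12 CPM, against 177 CPM, Six3 at 2.73 CPM, against 79.2 CPM, and Htra1 at 27.4 CPM, against 191 CPM, were among the lowest ratios, as were Pid1, Dkk2, Mal, Ptn and Fbln2, with log2 ratios between -3.63 and -2.58.

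Most haemoglobin transcripts of Apod Rarres1 cells lay in a few cells. Haemoglobin transcripts summed to 1072 CPM, against 26.7 CPM in remaining, 1238 CPM in tip and 6.32 CPM in barrier capillary cells, and 3 of the 165 cells held 99.8% of their haemoglobin UMIs. In the 15 fibroblast markers Apod Rarres1 cells summed to 55.3 CPM, against 90.8 CPM in remaining cells, with Fbln1 highest at 20.5 CPM. Photoreceptor markers summed to 364 CPM, of which 342 CPM was Gnb1, against 414 CPM. When the cells with the highest doublet scores were removed, 11 of 165 and 12 of 294, 59 genes were higher and 93 lower than in remaining cells.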

How the data were processed

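Retinas at postnatal day 6 were dissociated, enriched for CD31 and sequenced as 10x Chromium 3′ libraries (v3.1 chemistry), per the labels. Each library was deposited by the authors as a matrix of UMI counts over 32285 genes, with no scaling. The matrix headers name Cell Ranger 5.0.1, whereas version 6.1.1, FastQC 0.11.9 and the build mm10 stand in the submitters' processing notes. No deposited barcode had under 500 UMIs. Whether ambient RNA was removed or intronic reads counted is not given in the sources used here.

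Barcodes with at least 1000 UMIs, 500 genes and 1% to 10% mitochondrial UMIs were kept, and the endothelial rule was applied per cell. Classes were assigned in the order cycling, tip, barrier capillary, Apod Rarres1 and remaining. UMIs were summed per class and divided by all gene UMIs (CPM). Ratios have exact conditional binomial 95% intervals, CPM exact Poisson and shares Clopper-Pearson intervals, all of counting error only. A gene was compared with at least 50 UMIs over both classes and 20 CPM in 1, and counted beyond 1.5-fold; list genes needed 30 UMIs. Cells are not replicates and there was 1 library per genotype, so no test was made. For shares of cells, each cell was thinned to 5000 or 2000 UMIs.

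The members and the 44 gene lists (31 of endothelial functions, 13 of other cell types, 926 of 928 entries found in the files) were chosen with earlier results of these data known. Named genes were the rule genes and markers, a fixed core list, the 15 highest and 12 lowest ratios of each comparison and the 4 highest and lowest of each list, without predicted, ribosomal, mitochondrial, haemoglobin and Y-linked genes, Xist and Tsix. The highest and lowest ratios of each comparison also left out rule genes and markers found only in the 13 lists of other cell types. Some genes that this rule names are not reported here. A gene named for its variation over thinned cells was chosen after its values were seen. Scrublet in scanpy 1.11.5 marked 1 of 7909 control and 5 of 4237 Alk1 ECKO barcodes with its automatic threshold, which was taken as not working, and doublets were left in; an alternative removed the highest scores at 0.8% per 1000 cells, 144 in Alk1 ECKO and 521 in control. The ratio computation was checked on simulated data. Gene positions are from GENCODE vM21 (mm10) and promoters from RefSeq (GRCm38.p6). Python with numpy 2.4.6, scipy 1.17.1, pandas 2.3.3 and matplotlib 3.10.9 was used.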

Additional observations from a re-analysis of the deposited data

Results flagged for a closer look

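In barcodes that the report leaves out because under 1% of their UMIs were mitochondrial, 4 of 1257 endothelial barcodes of the Alk1 ECKO library passed every other part of the rule (0.318%, 95% Clopper-Pearson interval 0.0868% to 0.813%), against 0 of 5 in control. They drew attention because these barcodes lie outside every comparison and the control has none. The 4 barcodes held a median of 8653 UMIs, and their summed UMIs held 262 CPM of Apod, 379 CPM of Trf, 262 CPM of Htra3 and 1981 CPM of haemoglobin.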

How the results depend on the processing

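No paired analysis was possible because each genotype has 1 library and the labels give no replicate numbers. The share of Apod Rarres1 cells in Alk1 ECKO was 6.86% with no lower mitochondrial limit, 16.4% with 1 Apod UMI, 9.71% with 4 Apod and 2 Rarres1 UMIs, 10.2% with minimums in CPM (0 in control) and 4.68% when thinned to 5000 UMIs before the rule (0 in control), against 13.7%. Genes higher and lower than in remaining cells, 58 and 101 as reported, numbered 193 and 178 with no mitochondrial limit, 386 and 545 when thinned before the rule, 186 and 384 by the mean of per-cell CPM, 233 and 390 with minimums of 20 UMIs and 5 CPM, and 201 and 258 over cells thinned to 5000 UMIs. The number higher was 107 with minimums in CPM, and the number lower was 63 with 4 Apod and 2 Rarres1 UMIs, 244 against all other endothelial cells and 51 without arterial-rich cells. Against tip cells 793 and 654 passed with 20 UMIs and 5 CPM. Against barrier capillary cells 154 and 244 passed when thinned before the rule, 558 and 1488 with 20 UMIs and 5 CPM, and 425 and 389 relative to the median of all genes; the number lower was 1109 by the mean of per-cell CPM and 433 over thinned cells. Signs changed for Cd74 (0.98), H2-Ab1 (0.18) and, against barrier capillary cells, Hmox1 (-0.059) with minimums in CPM, for H2-Ab1 (0.82) without MHC class II cells, and for Mgp (0.49), Cxcl12 (0.16), Cd74 (1.26) and H2-Ab1 (1.02) without arterial-rich cells. Thinned before the rule, Slc11a2 (-0.15) and Slco1a4 (0.39) turned against remaining cells and Birc5 (-0.93), Hmox1 (-0.17), Slc38a5 (0.014) and the cell cycle median (-0.031) against barrier capillary cells. Against all other endothelial cells Kcng2 (-0.078), Myl9 (-0.035), Sirpa (-0.063), Gja4 (0.34), Cxcl12 (0.61), Cd74 (0.58), Ctsd (0.18) and Slc16a1 (-0.091) turned, as did Slc11a2 (-0.010) over cells thinned to 5000 UMIs. The cause was not tested. Doublet removal, leaving out MHC class II cells, a doubled endothelial minimum and leaving out cells rich in other cell types moved no count by over 1.5 times. The last 2 steps, on cells rich in other cell types and arterial-rich cells, were chosen after seeing the data. Depth limits the control, where 2 cells met the rule, and genes under 50 UMIs.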

Other observations

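Transcripts of the immediate early response, which dissociation of tissue is known to induce, were compared between classes. In Apod Rarres1 cells 1 of 24 measured genes was higher by at least 1.5-fold than in remaining cells (Dusp1, at 310 CPM, against 204 CPM) and 0 were lower, with a median log2 ratio of 0.22; 3.51% of all measured genes were higher, a share near this one. Against tip cells 6 of 24 were higher and 0 lower (median 0.35), where 9.99% of all measured genes were higher, with Fos at 473 CPM, against 260 CPM, and Junb at 762 CPM, against 435 CPM. Against barrier capillary cells 1 was higher and 5 lower (median -0.35), where 14.7% of all measured genes were lower and their median was -0.15, with Fos at 473 CPM, against 788 CPM. All cells went through 1 dissociation per library, and the part of this response in the other results was not tested.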
